A study of Homo sapiens with 8 samples.

Results

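Mature cytosolic tRNAs for phenylalanine, tryptophan and cysteine were examined in an aldehyde-capture experiment on human cells. The members were all peaks on a mature tRNA reference whose name carried tRNA-Phe-GAA, tRNA-Trp-CCA or tRNA-Cys-GCA, which gave 49 of the 4746 listed peaks. They lay on 9 of the 156 cytosolic tRNA references with a peak, 1 for Phe, 2 for Trp and 6 for Cys. The cells were HEK-293 per the labels (the methods of the study describe the HEK293T derivative), a human embryonic kidney line, either wild type (WT) or with a knockout of the dioxygenase ALKBH1 (KO). The KO line was grown from sorted single cells, so it may be 1 clone. Fragmented total RNA of every sample received a synthetic oligonucleotide with 5-formylcytidine (f5C) and was incubated with the aldehyde-reactive probe (ARP) and anisidine. A portion was kept as input and the rest was captured on streptavidin (IP), which gave WT input, WT IP, KO input and KO IP, with 2 libraries in each group.

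The value of a peak was its number of unique cDNA molecules. The summed peak counts ranged from 48380 to 285539 per library, and counts are also given per 1000000 of this sum (CPM). These sums cover called peaks and are not the sequencing depth. The lowest listed count was 10 in every library, worth 51.4 and 35.0 CPM in the KO inputs but between 102 and 207 CPM in the other 6 libraries. A reference without a listed peak is therefore written as not listed, never as absent. No library listed a peak on ALKBH1, so the counts did not check the genotype labels. No antisense peak was listed on a member.

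In tRNA, f5C arises when a methyltransferase of the NSUN family makes 5-methylcytidine (m5C) and ALKBH1 oxidizes it. The best known sites are the wobble cytidines of mitochondrial tRNA-Met and of cytosolic tRNA-Leu-CAA. Among the anticodons studied here, tRNA-Trp-CCA also begins with a wobble C, whereas tRNA-Phe-GAA and tRNA-Cys-GCA begin with a wobble G. Phe and Trp tRNAs receive 2′-O-methyl groups in the anticodon loop from FTSJ1, tRNA-Phe carries the bulky wybutosine base just 3′ of its anticodon, and tRNA-Cys is methylated by NSUN6 near its 3′ end.

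The gene sequences show how little separates the references, and which bases tell one from another. They are RefSeq tRNA genes read from GRCh38 in the direction of the tRNA, with the anticodon in capitals. The authors' own mature sequences were not used here, and genes of the same number were taken in their place. The 6 genes tRNA-Phe-GAA-1-1 to 1-6 were identical, and the authors' reference carries all 6 names. It is written tRNA-Phe-GAA-1 here.
tRNA-Phe-GAA-1-1 (chr6:28790722-28790794, minus strand): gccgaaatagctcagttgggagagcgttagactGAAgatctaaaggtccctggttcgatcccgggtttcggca
tRNA-Trp-CCA-2-1 (chr17:19508181-19508252, plus strand): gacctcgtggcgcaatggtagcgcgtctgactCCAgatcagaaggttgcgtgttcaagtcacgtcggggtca
tRNA-Trp-CCA-4-1 (chr12:98504252-98504323, plus strand): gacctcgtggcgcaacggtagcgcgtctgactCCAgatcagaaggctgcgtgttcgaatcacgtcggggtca
tRNA-Trp-CCA-3-1 (chr6:26319102-26319173, minus strand): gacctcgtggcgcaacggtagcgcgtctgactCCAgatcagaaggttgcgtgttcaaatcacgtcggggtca
tRNA-Cys-GCA-4-1 (chr17:38869292-38869363, minus strand): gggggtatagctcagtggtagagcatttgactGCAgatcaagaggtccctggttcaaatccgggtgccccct
tRNA-Cys-GCA-12-1 (chr7:149646955-149647026, minus strand): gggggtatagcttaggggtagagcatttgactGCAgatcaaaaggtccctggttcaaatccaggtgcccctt
tRNA-Cys-GCA-14-1 (chr17:38861684-38861755, minus strand): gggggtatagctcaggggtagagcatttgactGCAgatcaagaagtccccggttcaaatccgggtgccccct
tRNA-Cys-GCA-2-1 (chr4:123508850-123508921, minus strand): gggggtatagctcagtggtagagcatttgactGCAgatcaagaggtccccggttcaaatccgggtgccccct
tRNA-Trp-CCA-3-1 and tRNA-Cys-GCA-2-1, genes with 3 and 4 identical copies, are shown because no library listed a peak on their mature references. Positions are counted from 1 at the 5′ end of the gene, and the first base of a substitution belongs to the first gene named. From tRNA-Trp-CCA-3-1 the substitutions were C16T and A58G to tRNA-Trp-CCA-2-1, and T46C and A56G to tRNA-Trp-CCA-4-1. From tRNA-Cys-GCA-2-1 the only substitution to tRNA-Cys-GCA-4-1 was C50T, and those to tRNA-Cys-GCA-14-1 were T16G and G44A. tRNA-Cys-GCA-12-1 was the most distant of those shown, with 6 differing bases from tRNA-Cys-GCA-2-1.

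The Phe reference was higher after the pulldown in both genotypes, and its level in the WT IPs was above that in the KO IPs. For tRNA-Phe-GAA-1 the libraries counted 902 and 935 molecules before and 979 and 904 after the WT pulldown, against 1619 and 2194 before and 644 and 609 after the KO pulldown. The level was 9556 ± 25.3 CPM before and 16826 ± 2630 CPM after the pulldown from WT cells, and 8004 ± 453 CPM and 11868 ± 265 CPM from KO cells (SD, n = 2 each). The order of the groups was WT IP, KO IP, WT input and KO input, and no neighbours in it overlapped. Regions with a peak in every compared library were tested with edgeR's quasi-likelihood test, adjusted over all regions. The log2 fold change of the IP over the input was 0.75 (SE 0.16, adjusted p 0.0214) for WT and, for KO, 0.47 (SE 0.13, adjusted p 0.0221). Between the IPs it was 0.76 (SE 0.13, adjusted p 0.00233), higher in WT. The inputs differed by 0.30 (SE 0.11) with an adjusted p of 0.102, which did not pass. The KO pulldown change missed the threshold at 0.34 (adjusted p 0.0609) when regions without a peak were set to 0. In a fit where tRNA peaks were summed per anticodon it was 0.38 (SE 0.14, adjusted p 0.0546).

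**Figure D1:**
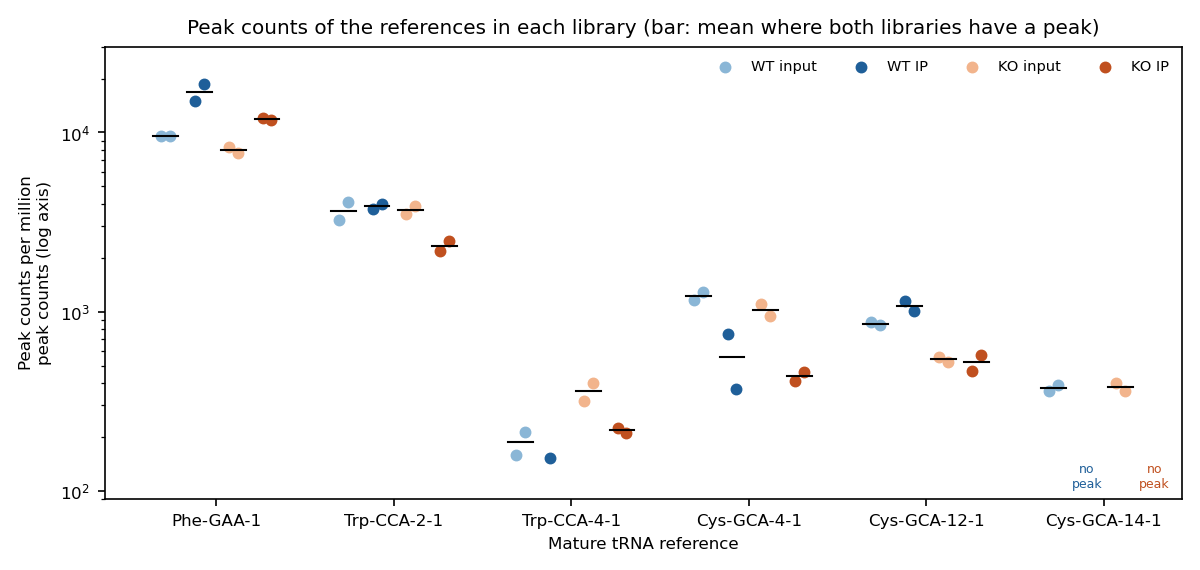
Peak counts in CPM (log axis) of the Phe reference, both Trp references and the 3 Cys references with the highest mean level, with 1 point per library and a bar at the mean where both libraries of a group list a peak. The Phe points rise from input to IP in both genotypes, tRNA-Trp-CCA-2-1 drops only in the KO IPs, where it lies between 2171 and 2493, and tRNA-Cys-GCA-14-1 has no IP peak.

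tRNA-Trp-CCA-2-1, which has the wobble C, was lower after the pulldown in KO cells, and no change passed the test in WT cells. Its libraries counted 307 and 400 molecules before and 245 and 194 after the WT pulldown, against 683 and 1117 before and 116 and 130 after the KO pulldown. The levels were 3669 ± 581, 3878 ± 187, 3712 ± 283 and 2332 ± 228 CPM in the same order (SD, n = 2 each). The first 3 groups overlapped, and the KO IPs lay below all of them. The log2 fold change of the IP over the input was -0.76 (SE 0.16, edgeR adjusted p 0.00643) for KO and, for WT, 0.01 (SE 0.17, adjusted p 0.941). Between the IPs it was 0.99 (SE 0.20, adjusted p 0.00479), and without KO IP replicate 1 it was 0.90 with an adjusted p of 0.0724. The inputs differed by 0.03 (SE 0.14, adjusted p 0.891).

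tRNA-Trp-CCA-4-1 was the minor Trp reference, with counts of 15 and 21 before the WT pulldown, 62 and 114 before the KO pulldown and 12 and 11 after it. WT IP replicate 1 listed 10 counts, the list minimum, and WT IP replicate 2 listed no peak, so no test of the WT pulldown was made. Its KO IPs were lower than the KO inputs by a log2 fold change of -0.81 (SE 0.24, edgeR adjusted p 0.0254). With 12 and 11 counts this call was lost under several settings, for example at -0.69 (adjusted p 0.119) without KO input replicate 2, -0.82 (adjusted p 0.0932) without KO IP replicate 1 and -0.82 (adjusted p 0.0836) without KO IP replicate 2.

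tRNA-Cys-GCA-4-1 was lower after the pulldown in KO cells, tRNA-Cys-GCA-12-1 passed no test of the pulldown in either genotype, and tRNA-Cys-GCA-14-1 was listed in every input and in no IP. For tRNA-Cys-GCA-4-1 the libraries counted 110 and 126 molecules before and 49 and 18 after the WT pulldown, against 214 and 270 before and 22 and 24 after the KO pulldown. Its log2 fold change was -1.33 (SE 0.23, edgeR adjusted p 0.00348) in the KO pulldown and -1.19 (SE 0.35, adjusted p 0.0526) in the WT pulldown. The WT IP libraries stood apart, at 749 and 372 CPM. Without WT IP replicate 1 the WT value was -1.74 (adjusted p 0.0228), and without WT IP replicate 2 WT was above KO after the pulldown by 1.04 (adjusted p 0.0225), against 0.65 (adjusted p 0.259) with both.

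For tRNA-Cys-GCA-12-1 they counted 82 and 83 molecules before and 75 and 49 after the WT pulldown, against 109 and 149 before and 25 and 30 after the KO pulldown. The WT level was 858 ± 16.7 CPM in input and 1080 ± 94.6 CPM in IP, and the KO level 541 ± 27.3 CPM in input and 522 ± 76.0 CPM in IP (SD, n = 2 each). Both WT groups lay above both KO groups. The pulldown changes were 0.26 (SE 0.19, edgeR adjusted p 0.323) for WT and, for KO, -0.15 (SE 0.22, adjusted p 0.617). The WT to KO differences were 1.31 (SE 0.31, adjusted p 0.0110) in the IPs and 0.71 (SE 0.17, adjusted p 0.0404) in the inputs. The input difference was lost when any 1 of the 4 libraries was left out, with values from 0.61 to 0.81. Those fits leave 1 library in a group and called fewer regions of the whole series, or none. The loss was thus not particular to this reference. Other settings gave an input difference of 0.35 (adjusted p 0.121) with cytosolic tRNA totals and 0.78 (adjusted p 0.239) by DESeq2. That of the IPs was lost without KO IP replicate 1 at 1.17 (adjusted p 0.163) and without KO IP replicate 2 at 1.44 (adjusted p 0.0844), and by DESeq2 at 1.28 (adjusted p 0.0802).

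tRNA-Cys-GCA-14-1 had input counts of 34 and 38 for WT and 78 and 103 for KO, a log2 fold change of 0.02 (SE 0.20, edgeR adjusted p 0.953). Its input levels, between 361 and 401 CPM, were above the 207 CPM that the list minimum was worth in the IP library with the highest such value. Of the mature cytosolic tRNA regions with a peak in all 4 inputs, 6.19% had no peak in any IP. The other 3 Cys references were sparse. tRNA-Cys-GCA-17-1 was listed in 3 libraries with 17 to 22 counts, tRNA-Cys-GCA-19-1 in the KO inputs with 11 and 21, and tRNA-Cys-GCA-10-1 in WT input replicate 1 with 13. No mature member was listed in both IPs of one genotype and neither IP of the other.

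Within the Cys counts, the share of tRNA-Cys-GCA-12-1 lay higher in every IP library than in the inputs of its genotype. It was 32.6% ± 1.46 of input and 62.3% ± 15.4 of IP counts for WT, and 26.5% ± 0.107 of input and 54.4% ± 1.67 of IP counts for KO (SD, n = 2 each). The share of tRNA-Cys-GCA-4-1 was 46.7% ± 6.15, 30.2% ± 4.73, 50.1% ± 2.64 and 45.6% ± 1.67 in the same groups. These shares rest on called peaks, whose summed length for Cys was 131 and 86 nt before and 79 and 56 nt after the WT pulldown, and 120 and 189 nt before and 54 nt in each library after the KO pulldown. The mean count per Cys peak was 48.7 and 33.5 in the IP libraries of WT and 23.5 and 27 in those of KO.

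The 3 anticodons held between 1.40% and 2.41% of all peak counts of a library. The Phe share was 1.68% ± 0.263 in the WT IPs and 1.19% ± 0.0265 in the KO IPs, the Trp share 0.395% ± 0.00789 and 0.255% ± 0.0218, and the Cys share 0.181% ± 0.0599 and 0.0958% ± 0.0110 (SD, n = 2 each). For each anticodon both WT IP libraries lay above both KO IP libraries. An exact two-sided permutation test of 2 libraries against 2 gave p = 0.333, the smallest it can give.

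Peak positions differed between libraries of the same reference. Of the 49 peaks, 40 covered the whole anticodon. A further 6 began on the base directly after it, 3 in the WT IPs, 2 in the KO IPs and 1 in a WT input. The pair of references with such a start in both libraries of a group behaved in opposite ways. For tRNA-Cys-GCA-4-1 the peaks began at position 36 in both WT IPs and at 19 in both KO IPs. For tRNA-Cys-GCA-12-1 they began at 19 in both WT IPs and at 36 in both KO IPs. The inputs of both references began at 19 or upstream of it. The Trp reference tRNA-Trp-CCA-2-1 began at 24 in the WT IPs, at 25 in the KO IPs and WT inputs and at 12 in the KO inputs, and ended at 57 in all 8 libraries. tRNA-Phe-GAA-1 began at 20 before and 15 after the WT pulldown, at 6 before the KO pulldown and at 15 and 4 after it. Starts at or before position 12 were listed mostly in the KO inputs, which also had the highest counts, and the part of the count in this was not tested.

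The 3′ ends of the peaks were set against the sequences printed above. Each gene shares a stretch at its 3′ end with at least 1 other gene of its anticodon. The last base before this shared stretch was 57 for tRNA-Phe-GAA-1, 58 for tRNA-Trp-CCA-2-1, 56 for tRNA-Trp-CCA-4-1, 50 for tRNA-Cys-GCA-4-1, 44 for tRNA-Cys-GCA-14-1 and 71 for tRNA-Cys-GCA-12-1. All 49 peaks ended before it. The highest end was 56, 57, 55, 49, 43 and 62 for the same references, so 5 of these 6 ended 1 base short of it in at least 1 library. Across the 9 references with a peak that base had a median position of 57 (range 44 to 71). Across the 33 annotated genes of these anticodons without a mature peak the median was 14 (range 2 to 77). The 4-copy gene tRNA-Cys-GCA-2-1 and the 3-copy gene tRNA-Trp-CCA-3-1 had it at 14 and 2. This comparison was made after the peaks had been seen. How the authors' mapping assigned reads that fit several mature references was not tested, so the counts may not separate the isodecoders of an anticodon. Nor need the sums per anticodon be totals, since they hold listed peaks only and 33 annotated genes had no mature peak to add. For the iCLIP libraries of the study, positions were sites where reverse transcription stopped. The sources used here do not state this for the ARP libraries.

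Whether the pulldown acted differently in the genotypes was tested as an interaction over all 4 groups. Of the 4 references in all 8 libraries, 2 passed, tRNA-Trp-CCA-2-1 at a log2 value of 1.12 (SE 0.27, edgeR adjusted p 0.0193) and tRNA-Phe-GAA-1 at 0.62 (SE 0.19, adjusted p 0.0435). Of all 186 regions in that fit, 30.1% passed. tRNA-Cys-GCA-12-1 had 0.77 (SE 0.29, adjusted p 0.0880) and tRNA-Cys-GCA-4-1 0.51 (SE 0.46, adjusted p 0.431). The tRNA-Trp-CCA-2-1 call was lost without KO input replicate 1 (0.91), KO input replicate 2 (0.73), WT IP replicate 2 (1.09) or KO IP replicate 1 (1.03). The tRNA-Phe-GAA-1 call was lost without any 1 library except WT input replicate 2 or WT IP replicate 1, down to 0.27 without KO input replicate 1. With peaks summed per anticodon, all 3 sums passed in the direction of a higher ratio in WT, where 26.8% of all rows passed. The values were 1.25 (SE 0.27, adjusted p 0.0140) for Trp, 1.10 (SE 0.32, adjusted p 0.0380) for Cys and 0.81 (SE 0.24, adjusted p 0.0397) for Phe. For scale, tRNA-Leu-CAA had 4.32 (SE 0.29, adjusted p 1.72e-05), and the median of the 36 cytosolic anticodons was 0.33.

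The level of these values depended on how the libraries were scaled, since a scaling moves all rows of the fit nearly alike. The fit over 4 groups has its own TMM factors, so its values are not the differences between the separate pulldown fits. There WT and KO had 0.01 and -0.86 for Trp, -0.56 and -1.28 for Cys, and 0.80 and 0.38 for Phe. For each sum these lie closer together than its interaction value. In the interaction the median over all 138 rows was 0.19 with TMM factors and -0.35 when the peak totals were used as library sizes. Of the rows that passed, 30 were higher and 7 lower in WT with TMM factors, and 16 were higher and 36 lower with peak totals. A shift of all rows leaves the distance from the median nearly the same by construction, so it is given as a description. Over 4 scalings the Trp sum stood between 1.06 and 1.07 above the median, the Cys sum between 0.90 and 0.91 and the Phe sum between 0.59 and 0.61. With regions that lack a peak entered at 0 counts, the median of the then 769 rows was 0.92, and all 3 sums lay below it, with differences from it of -0.16 for Trp, -0.33 for Cys and -0.63 for Phe. Over the 4 scalings the values themselves ran from 0.71 to 1.25 for Trp, from 0.55 to 1.10 for Cys and from 0.25 to 0.81 for Phe. With peak totals, Trp still passed (adjusted p 0.0351), and Cys (adjusted p 0.233) and Phe (adjusted p 0.278) did not. The Trp call was lost without KO IP replicate 1 at 1.01 (adjusted p 0.131). The Phe call was lost without any 1 library except WT IP replicate 1 (0.57 without WT IP replicate 2 was the lowest value). The Cys call was lost without any 1 library except WT IP replicate 2 or KO input replicate 2 (0.78 without WT IP replicate 1 was the lowest).

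**Figure D2:**
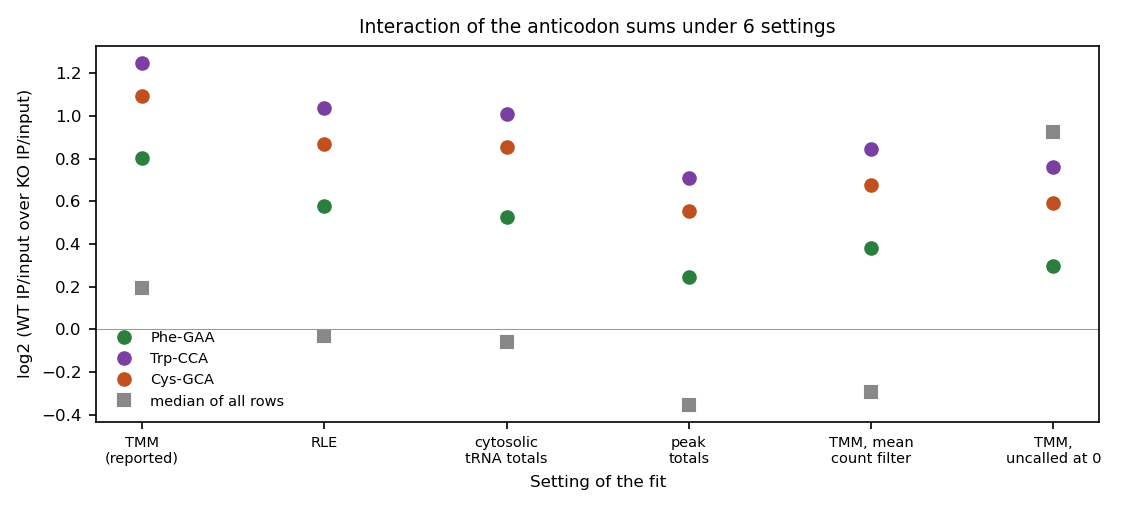
Interaction of genotype and pulldown (log2 of the WT IP to input ratio over the KO ratio) for the 3 anticodon sums and the median of all rows under 6 settings of the fit. The sums lie above the median except with uncalled regions at 0, where the median is 0.92 and the Trp, Cys and Phe sums are 0.76, 0.59 and 0.30.

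The other comparisons share libraries with each other and with the interaction, so their values are set side by side only. In the WT pulldown 1 of 4 tested references passed, the Phe one and higher in the IP, beside 48.1% of all regions. In the KO pulldown 4 of 5 passed, 1 higher and 3 lower, beside 56.5%. Between the IPs 3 of 4 passed, all higher in WT, beside 37.3%. Between the inputs 1 of 6 passed, tRNA-Cys-GCA-12-1, beside 35.2%. As sums, only Phe passed in the WT pulldown, at 0.80 (SE 0.17, adjusted p 0.00845), beside 51.9% of the rows of that fit. This call was lost without WT input replicate 1, at 0.75 (adjusted p 0.0885), and without WT input replicate 2, at 0.85 (adjusted p 0.0775). The Cys sum had -0.56 (SE 0.28, adjusted p 0.155) there. In the KO pulldown, where 56.5% of the rows passed, Trp at -0.86 (SE 0.17, adjusted p 0.00457) and Cys at -1.28 (SE 0.23, adjusted p 0.00251) were lower. Between the IPs, where 41.5% passed, all 3 sums were higher in WT, Cys at 1.23 (SE 0.31, adjusted p 0.0302), Trp at 0.95 (SE 0.17, adjusted p 0.0115) and Phe at 0.82 (SE 0.15, adjusted p 0.0135). Of the rows that passed, 37 were higher and 34 lower in WT, and with peak totals 22 were higher and 48 lower. The sums ranked 2, 4 and 6 among 36 cytosolic anticodons, after tRNA-Leu-CAA at 4.25 (SE 0.21, adjusted p 0.000424). The Phe and Trp calls between the IPs were lost without either KO IP library (adjusted p from 0.0912 to 0.148), where 4 and 0 of all 171 rows passed, and the Cys call also without WT IP replicate 1, at 0.88 (adjusted p 0.0682). Between the inputs no sum passed, beside 28.6% of the rows by edgeR, with Phe at 0.36 (adjusted p 0.0528), Cys at 0.48 (adjusted p 0.0502) and Trp at 0.03 (adjusted p 0.876). The unadjusted p was 0.0189, 0.0166 and 0.843 in the same order, and DESeq2 called the Phe sum alone, at 0.41 (adjusted p 0.0345).

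**Figure D3:**
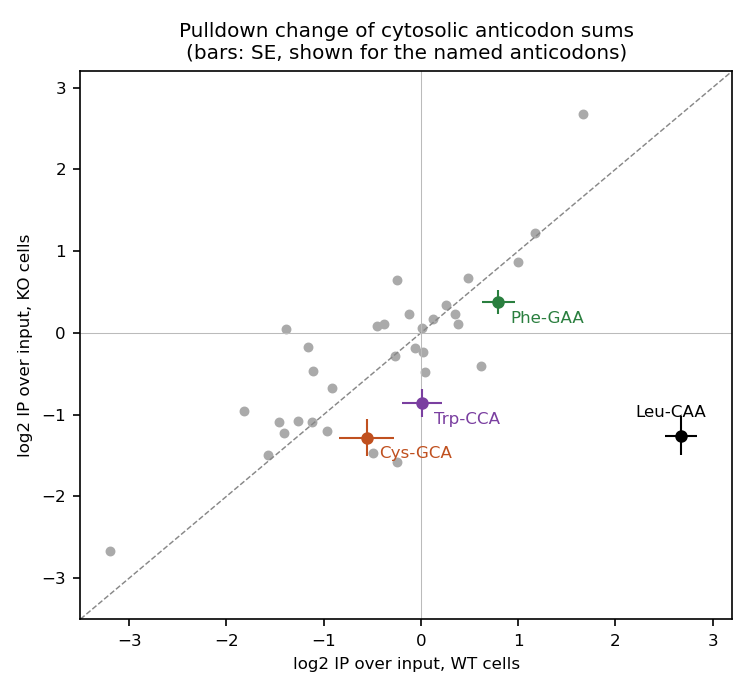
log2 fold change of the IP over the input in KO cells against that in WT cells for each cytosolic anticodon tested in both, with SE bars on the named anticodons and the line of equal change dashed. Phe-GAA (0.80 and 0.38), Trp-CCA (0.01 and -0.86) and Cys-GCA (-0.56 and -1.28) lie below the line, far nearer to it than Leu-CAA (2.68 and -1.26).

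Grouping the anticodons by wobble base placed Trp with the C group and Phe and Cys with the G group. In the interaction 5 of 14 anticodons with a wobble C and 2 of 7 with a wobble G passed, all higher in WT, and the 2 with G were Phe and Cys. The medians were 0.32 for C, 0.19 for G, 0.34 for A (3 anticodons, none passed) and 0.35 for T (12 anticodons, 1 passed). In the KO pulldown 8 of 15 C anticodons were lower and none was higher, with a median of -0.86, which is the value of Trp itself. Of all 39 anticodons there, 15 were lower and 6 higher. Lower were 3 of 7 with G, 2 of 4 with A and 2 of 13 with T, and 1, 1 and 4 of these were higher. In the WT pulldown the C median was -0.31 with 5 of 14 lower and 1 higher, beside 12 lower and 8 higher of all 38 anticodons. Of 8 G anticodons, 3 were higher and 3 lower in WT.

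Peaks at the tRNA genes themselves were a separate readout, called from reads that had not mapped to the mature references. Of 47 annotated genes of the 3 anticodons, 21 had such a peak, and 14 of these had one in both WT IPs. No KO IP listed a peak at 11 of the 14, or 78.6%, against 37.7% of the 175 regions of the genome lists with a peak in both WT IPs. For 10 of the 11 the level in both WT IPs was above 192 CPM, the higher of the list minimums of the KO IPs. The WT IP counts of these 11 ran from 11 to 114, 6 had no WT input peak, and 7 were listed in a KO input. No locus was listed in both KO IPs and in no WT IP, and the share of all regions with that pattern was not counted. TRC-GCA14-1 was listed in every input and, with 12 counts, in KO IP replicate 1, but in no WT IP. A further 4 Cys loci were listed in an input and in no IP. The Trp loci TRW-CCA4-1 and TRW-CCA1-1 were listed in KO inputs only.

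All 7 Phe loci with a peak were in both WT IPs, and 6 of them were in no KO IP. TRF-GAA1-2 had 48 and 47 counts in the WT IPs, with 13 in KO input replicate 2 as its only other value. TRF-GAA1-4 had 59 and 58 counts there, 12 in WT input replicate 2, and 19 and 34 before the KO pulldown. TRF-GAA1-1, the gene printed above, had 270 and 339 counts after the WT pulldown but 11 and 28 after that from KO cells. It was listed in every input too, at 14 and 14 counts for WT and 14 and 13 for KO. The KO pulldown change also passed, at 2.59 (SE 0.50, edgeR adjusted p 0.00549). So did the input difference, at 1.38 (SE 0.35, adjusted p 0.0452), higher in WT. That input call was lost without any 1 library, with values from 1.00 to 1.75. Those fits called fewer regions of the whole series, or none. TRF-GAA3-1 was lower in the WT inputs, with 15 and 11 counts in WT and 96 and 136 in KO (log2 fold change -1.79, SE 0.26, edgeR adjusted p 0.0209). That call was lost by DESeq2 (adjusted p 0.0879), and also without WT input replicate 1 or either KO input, where no other region of the series passed. With 1 library left out its values ran from -2.09 to -1.58.

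The Trp locus TRW-CCA2-1, whose mature product is the main Trp reference, had counts of 68 and 38 before and 87 and 114 after the WT pulldown, 109 and 60 before the KO pulldown and no KO IP peak. Its WT pulldown change was 1.67 (SE 0.48, edgeR adjusted p 0.0475), and 1.15 (adjusted p 0.155) without WT IP replicate 2. Among Cys loci, TRC-GCA2-3 had 50 and 35 counts in the WT IPs and was in no other library. TRC-GCA2-2 was listed in all 8, at 13 and 11 counts before and 88 and 76 after the WT pulldown, and 41 and 64 before and 26 and 30 after the KO pulldown. Its pulldown change was 3.46 (SE 0.27, adjusted p 0.00147) for WT and, for KO, 1.19 (SE 0.21, adjusted p 0.00380, and 0.120 by DESeq2). TRC-GCA8-1 was enriched in both, by 2.82 (SE 0.22, adjusted p 0.00147) and 2.15 (SE 0.19, adjusted p 0.000286), and its IPs did not pass a test between genotypes (0.33, SE 0.29, adjusted p 0.442). Neither gene had a peak on its mature reference. Only 3 loci were tested in the interaction, because a peak in every library was required. The genes TRC-GCA2-1 to 2-4 are identical, as are TRF-GAA1-1 to 1-6. No listed peak at TRC-GCA2-3 or TRF-GAA1-1 reached outside its gene, so the peak extents do not tell these from their copies.

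**Figure D4:**
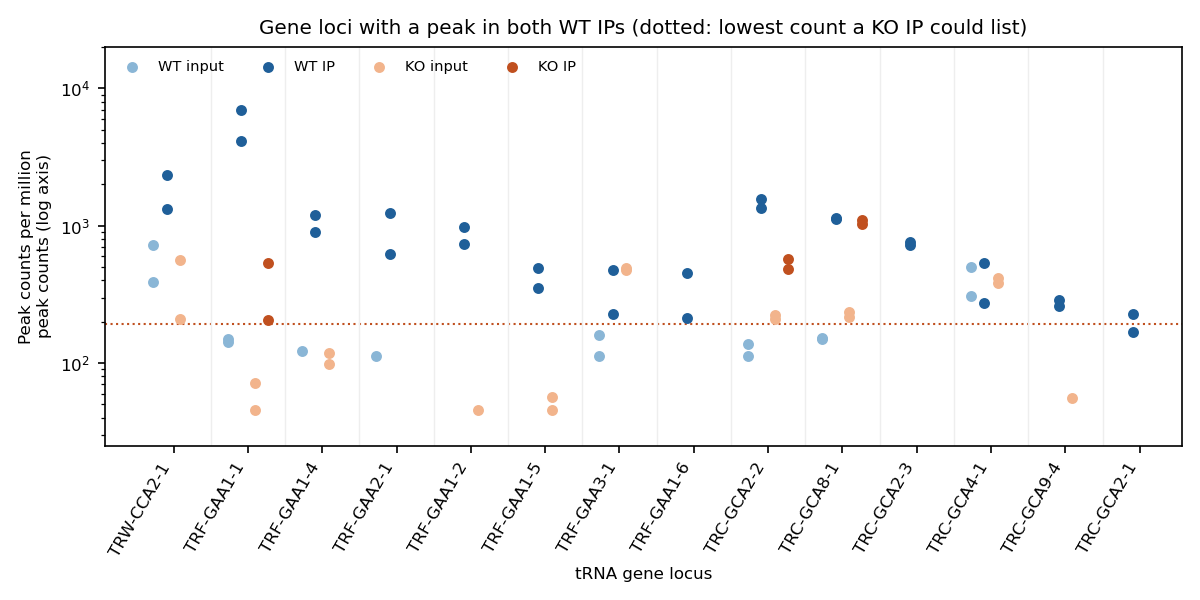
Peak counts in CPM (log axis) at the 14 tRNA gene loci with a peak in both WT IPs, with 1 point per library that lists a peak. The dotted line is the higher list minimum of the KO IPs (192 CPM), and KO IP points are present at 3 loci only.

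The filter of the study asks for a score above 10, presence in both replicates, and either no input peak or a fold over the input above 1.5, and then for no peak in the KO controls. All 4 mature members in both WT IPs also had input peaks, so the fold decided. With CPM ratios it kept 1 of 4 peaks, tRNA-Phe-GAA-1, with a mean ratio of 1.76. The ratios were 1.26 for tRNA-Cys-GCA-12-1, 1.07 for tRNA-Trp-CCA-2-1 and 0.466 for tRNA-Cys-GCA-4-1. All 4 had peaks in the KO IPs, so none was left after peaks of the KO pulldown were removed. Of the 98 mature cytosolic tRNA regions with a peak in both WT IPs, only 7.14% had no KO IP peak. The share of all peaks that the fold would keep was not counted. With TMM scaling the ratio of tRNA-Cys-GCA-12-1 was 1.58 and 2 peaks were kept, and with unscaled counts none was kept. The criteria of the study name no scaling, and library totals other than the summed peak counts were not used here. With such totals the outcome for tRNA-Trp-CCA-2-1 and the others may differ. The study counts tRNA-Trp-CCA among its ARP targets that were also top hits of its iCLIP experiment. The filter as run here kept no Trp peak, and the reason for this difference was not tested.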

How the data were processed

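ARP-sequencing peak lists of 8 libraries (4 groups of 2) were analysed, grouped by their titles. Per the methods of the study, the authors removed PCR duplicates by unique molecular identifiers, mapped reads with STAR to tRNA and rRNA and the rest uniquely to GRCh38, and called peaks with Paraclu at default parameters in each library. What they deposited per peak is a count of cDNA molecules without normalization. Only called peaks of at least 10 counts are listed, so sums move with what was called, and low regions were listed more readily in the KO inputs.

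Peaks overlapping by at least 1 nt were merged into 1373 regions. Regions with a peak in every compared library entered the quasi-likelihood test of edgeR 4.0.16 (R 4.3.3, TMM factors, Benjamini-Hochberg adjusted p under 0.05 over all regions, two-sided), with the compared groups in the fit, once per region and once with tRNA peaks summed per anticodon. The test was first tried on simulated data, where few regions changed and in random directions. That trial does not bear on how scaling moved the results here. Alternatives covered the scaling, DESeq2 1.42.0, uncalled regions at 0, a mean count of at least 50, the replicate number as a block, and leaving out each library. A library left alone in its group was assumed to vary like the others. The labels do not say whether replicates were separate cultures, so p-values measure the spread between these samples, which may be technical. WT and KO also differ in anything else that separates the lines. Sequences were matched by gene number to RefSeq (GRCh38.p14), whose tRNA strand was read from the T-loop motif. Named in full were the sums, the top 3 references per anticodon by mean CPM, and members past the threshold. Members and lists were chosen with earlier results of these data known. Python 3.11.15, scipy 1.17.1 and matplotlib 3.10.9 were used.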

Additional observations from a re-analysis of the deposited data

Results flagged for a closer look

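The difference between the genotypes in the pulldown passed its own test, the interaction term, for 8 values. Among the anticodon sums these were Trp at 1.25, Cys at 1.10 and Phe at 0.81. Among single references they were tRNA-Trp-CCA-2-1 at 1.12 and tRNA-Phe-GAA-1 at 0.62. Among gene loci they were TRF-GAA1-1 at 2.94, TRC-GCA2-2 at 2.63 and TRC-GCA8-1 at 1.02. All are log2 values with a higher IP to input ratio in WT, and the sums contain the references. Of all 186 regions 30.1% passed, and of all 138 rows with tRNA peaks summed 26.8%. The 3 loci were the only ones tested there. Their WT input counts lay between 11 and 15, near the list minimum of 10. For TRC-GCA8-1 the inputs had 14 and 15 counts in WT and 42 and 67 in KO. Its IPs had 74 and 54 counts in WT and 59 and 54 in KO, and did not pass a test between genotypes. All 8 values carry the scaling of the fit over 4 groups, which differs from that of the separate pulldown fits. TRC-GCA2-2 passed under every alternative run (adjusted p from 0.000182 to 0.0118). TRC-GCA8-1 was lost without any 1 library, with values from 0.65 to 1.12. TRF-GAA1-1 was lost without WT input replicate 1 or either KO input, with values from 2.33 to 3.52 over all libraries left out. With 2 libraries in a group no single library could be tested for standing apart.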

How the results depend on the processing

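With 2 libraries per group, leaving 1 out ended many calls and left 1 library alone in its group. Between the inputs the member call ended in fits that called fewer regions of the whole series, or none. Interaction sums then ran from 0.57 to 1.01 for Phe, 1.01 to 1.52 for Trp and 0.78 to 1.34 for Cys. Between the IPs they ran from 0.62 to 1.00 for Phe, 0.90 to 1.03 for Trp and 0.88 to 1.51 for Cys. In the WT pulldown they ran from 0.67 to 1.08 for Phe, -0.19 to 0.24 for Trp and -0.81 to -0.22 for Cys, in the KO pulldown from 0.27 to 0.50 for Phe, and between the inputs from 0.27 to 0.45 for Phe and -0.14 to 0.16 for Trp. The peaks kept by the filter ran from 1 to 2.

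Interaction values no longer past the threshold were, for Phe, 0.58 (RLE), 0.25 (peak totals), 0.30 (uncalled regions at 0) and 0.38 (mean count of at least 50). For Cys they were 0.87 (RLE), 0.55 (peak totals), 0.86 (cytosolic tRNA totals), 0.87 (DESeq2), 0.59 (uncalled at 0) and 0.68 (mean count of at least 50), and for Trp 0.76 (uncalled at 0). Member regions called there were 1 with RLE, peak totals, DESeq2 or a mean count of at least 50. Of all regions, 65, 69 and 51 of 186 and 56 of 166 passed in the same order. With uncalled regions at 0 the members called were 0, beside 91 of 853 regions. Between the IPs the Trp sum was 0.60 with cytosolic tRNA totals, and the Cys sum 0.92 with peak totals, 0.91 with cytosolic tRNA totals and 1.22 with DESeq2. The Phe sum passed in the KO pulldown at 0.49 with RLE, 0.57 with peak totals, 0.29 with cytosolic tRNA totals, 0.49 with DESeq2 and 0.61 with a mean count of at least 50. Between the inputs Phe passed at 0.41 with RLE or DESeq2 and 0.50 with a mean count of at least 50, and Cys at 0.53 with RLE and 0.61 with that minimum. Member regions called between the inputs were 2 with RLE, uncalled regions at 0 or that minimum. Of all regions, 146 of 400, 363 of 743 and 125 of 284 passed in that order. DESeq2 called 0 members there, beside 59 of 400 regions. In the WT pulldown 2 members were called with uncalled regions at 0, beside 336 of 566 regions.

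Input differences turned negative with cytosolic tRNA totals for the Phe sum (-0.061), the Trp sum (-0.40), tRNA-Phe-GAA-1 (-0.061), tRNA-Cys-GCA-4-1 (-0.055), tRNA-Cys-GCA-14-1 (-0.34) and tRNA-Trp-CCA-2-1 (-0.34), where the median of all rows was -0.46. With peak totals they did for the Trp sum (-0.078), tRNA-Cys-GCA-14-1 (-0.023) and tRNA-Trp-CCA-2-1 (-0.017). With uncalled regions at 0 they did for the Trp sum (-0.040), tRNA-Cys-GCA-14-1 (-0.012) and tRNA-Trp-CCA-2-1 (-0.00086), and with 1 library left out tRNA-Cys-GCA-14-1 ran from -0.10 to 0.14 and tRNA-Trp-CCA-2-1 from -0.17 to 0.15. In the WT pulldown the Trp sum was -0.055 with uncalled regions at 0, and tRNA-Trp-CCA-2-1 ran from -0.088 to 0.32 with 1 library left out. In the KO pulldown tRNA-Cys-GCA-12-1 was 0.060 with a mean count of at least 50 and 0.039 without KO IP replicate 1. The interaction of tRNA-Cys-GCA-4-1 was -0.35 without WT IP replicate 1. None of these reversed values passed the test.

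As shares of the cytosolic tRNA counts the IPs differed by 1.35 percentage points for Phe, 0.396 for Trp and 0.250 for Cys, against 0.496, 0.140 and 0.0851 of all counts, and by 0.203 for Trp over peaks above 100 counts. No Cys value could be had there. Unscaled ratios or a ratio above 2 kept 0 peaks, TMM scaling 2. Without replicate 2, 1 of the 2 peaks kept had no KO IP peak.

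The number of regions that passed over the whole series moved as well. With uncalled regions at 0 it was 336 of 566 in the WT pulldown, 518 of 737 in the KO pulldown, 208 of 429 between the IPs, 363 of 743 between the inputs and 91 of 853 in the interaction, and DESeq2 gave 54 of 220 between the IPs and 59 of 400 between the inputs. Of the summed rows passing between the inputs, 41 were higher and 54 lower in WT, and 16 and 127 with cytosolic tRNA totals. The cause of these changes was not tested. The gene locus alternatives were chosen after seeing the data.

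The replicate numbers share no stated origin, and the block rests on 2 pairs per comparison. Same-numbered libraries correlated in their deviations at r between -0.05 and 0.49. With the replicate number as a block, 182 of 332 summed rows passed between the inputs against 95 without it. The member regions called were 2 in the WT pulldown, beside 136 of 243 regions, and 2 between the inputs, beside 208 of 400. The Cys sum passed in the WT pulldown at -0.58, and Phe at 0.36 and Cys at 0.48 passed between the inputs. Of single references, tRNA-Cys-GCA-4-1 passed in the WT pulldown at -1.19 (edgeR adjusted p 0.0331) and between the IPs at 0.63 (adjusted p 0.0405). That made 4 member regions between the IPs, beside 116 of 220 regions. Between the inputs tRNA-Trp-CCA-4-1 passed at -0.90 (adjusted p 0.0150).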
